A study of Mus musculus with 16 samples.

Results

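The genes examined here are 10 components of bone morphogenetic protein (BMP) signalling, namely the ligands Bmp2, Bmp4 and Bmp7, the type I receptors Bmpr1a and Bmpr1b, the secreted antagonists Nog and Chrd, and the target genes Id1, Id2 and Id3. Every probe set whose platform annotation carried 1 of these symbols was taken, which gave 13 probe sets of the 12422 that were tested on the Affymetrix MG-U74Av2 array. Bmp2 had 3 probe sets, Bmp4 had 2 and the other genes had 1 each. The study asked which genes depend on COUP-TFI, an orphan nuclear receptor encoded by Nr2f1, in the newborn inner ear. RNA came from whole inner ears of P0 mice of strain 129SvEv, either COUP-TFI-/- or wild-type, and the labels name no treatment. Ears of several animals were combined into RNA pools because newborn ears yield little RNA, and the number of ears in a pool is not given in the sources used here. A whole-ear pool mixes sensory epithelium with the otic capsule, nerve and attached tissue, so fewer cells of a type and less RNA per cell cannot be told apart. The arrays were run as 2 hybridization sets at different times, called A and B, and each set held 1 pool per genotype hybridized in duplicate. There were thus 8 chips, 4 per genotype, named by set and duplicate as A1, A2, B1 and B2. Duplicate chips share their RNA, so each genotype had 2 independent pools. With so few pools, the genotype p-values draw their spread largely from all probe sets. The set and interaction p-values rest on duplicate chips.

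BMPs are secreted ligands of the transforming growth factor beta superfamily. They bind pairs of type I and type II serine/threonine kinase receptors, which phosphorylate receptor-regulated Smad proteins, and these enter the nucleus with a common partner Smad to turn on genes such as the Id family. Noggin and chordin bind the ligands outside the cell and keep them from their receptors. In the developing ear, Bmp4 marks prospective sensory patches, and the pathway takes part in the formation of the cristae, the semicircular canals and the cartilage of the otic capsule.

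Each chip was deposited in 2 normalizations. GCRMA corrects the background by the base composition of the probes and gives log2 values, whereas dChip fits a model of probe response and gives intensities on a linear scale, which were put on the log2 scale for all differences. The targeted gene served as a check of the labels. Nr2f1 (102715_at) had GCRMA values of 4.68 to 5.27 in the 4 COUP-TFI-/- chips and 7.74 to 8.83 in the 4 wild-type chips. Across probe sets, duplicate chips correlated with r of 0.996 to 0.997, and chips of 1 genotype from different sets with r of 0.979 to 0.987. The tissue label was checked against inner ear epithelial genes such as Tecta, Otog and Oc90, and the 7 of 8 listed markers on the array had mean GCRMA values between percentiles 55.5 and 99.2 of all probe sets. These values, like those of the other marker lists, take the brightest probe set of each gene. The other probe sets of Gjb6, a connexin gene, lay at percentiles 32.5 and 0.451.

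None of the 13 BMP probe sets passed the test between COUP-TFI-/- and wild-type ears. At an adjusted p under 0.05 (limma on pool means with the hybridization set as a block, Benjamini-Hochberg over all probe sets, 2-sided), 0 of 13 passed in the GCRMA values and 0 of 13 in the dChip values, where 0.105% and 0.00805% of all probe sets passed. At an unadjusted p under 0.05 the count was also 0 of 13 in both, against 4.58% of all probe sets in GCRMA and 2.13% in dChip. The smallest unadjusted p among the members was 0.104 for Chrd in GCRMA and 0.0517 for Bmpr1b in dChip, and every adjusted p rounded to 1.00 in limma.

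The differences themselves were small. In GCRMA they ran from -0.12 to 0.16 log2 units (COUP-TFI-/- minus wild-type), with 7 above 0, 6 below and a median of 0.04, beside a median of 0.00077 over all probe sets. In dChip they ran from -0.32 to 0.32, with 8 above 0, 5 below and a median of 0.03, beside -0.0089 over all probe sets. The median absolute difference was 0.07 for the members in both normalizations and 0.06 in GCRMA and 0.07 in dChip for all probe sets. The 95% intervals of the GCRMA differences allowed at most a 1.29-fold difference in either direction for any of the 13 probe sets. In dChip the intervals reached 1.71-fold over all 13 and 1.40-fold over the 10 probe sets outside the dimmest 25% of the array. These intervals draw their spread largely from all probe sets, and the GCRMA SE was 0.095 to 0.112 over the 13. They are therefore not a measure of the spread between pools of each member.

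No probe set had all 4 COUP-TFI-/- chips on one side of all 4 wild-type chips, in either normalization (0 of 13, against 2.26% of all probe sets in GCRMA and 1.89% in dChip). The direction was the same in sets A and B for 5 of 13 probe sets in GCRMA (3 higher, 2 lower), against 45.6% of all probe sets, and for 4 of 13 in dChip (2 higher, 2 lower), against 43.7%. The 3 probe sets that held 1 sign in both sets and both normalizations were Bmp4 93455_s_at and Bmpr1b, higher in COUP-TFI-/-, and Bmp7, lower in COUP-TFI-/-.

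**Figure D1:**
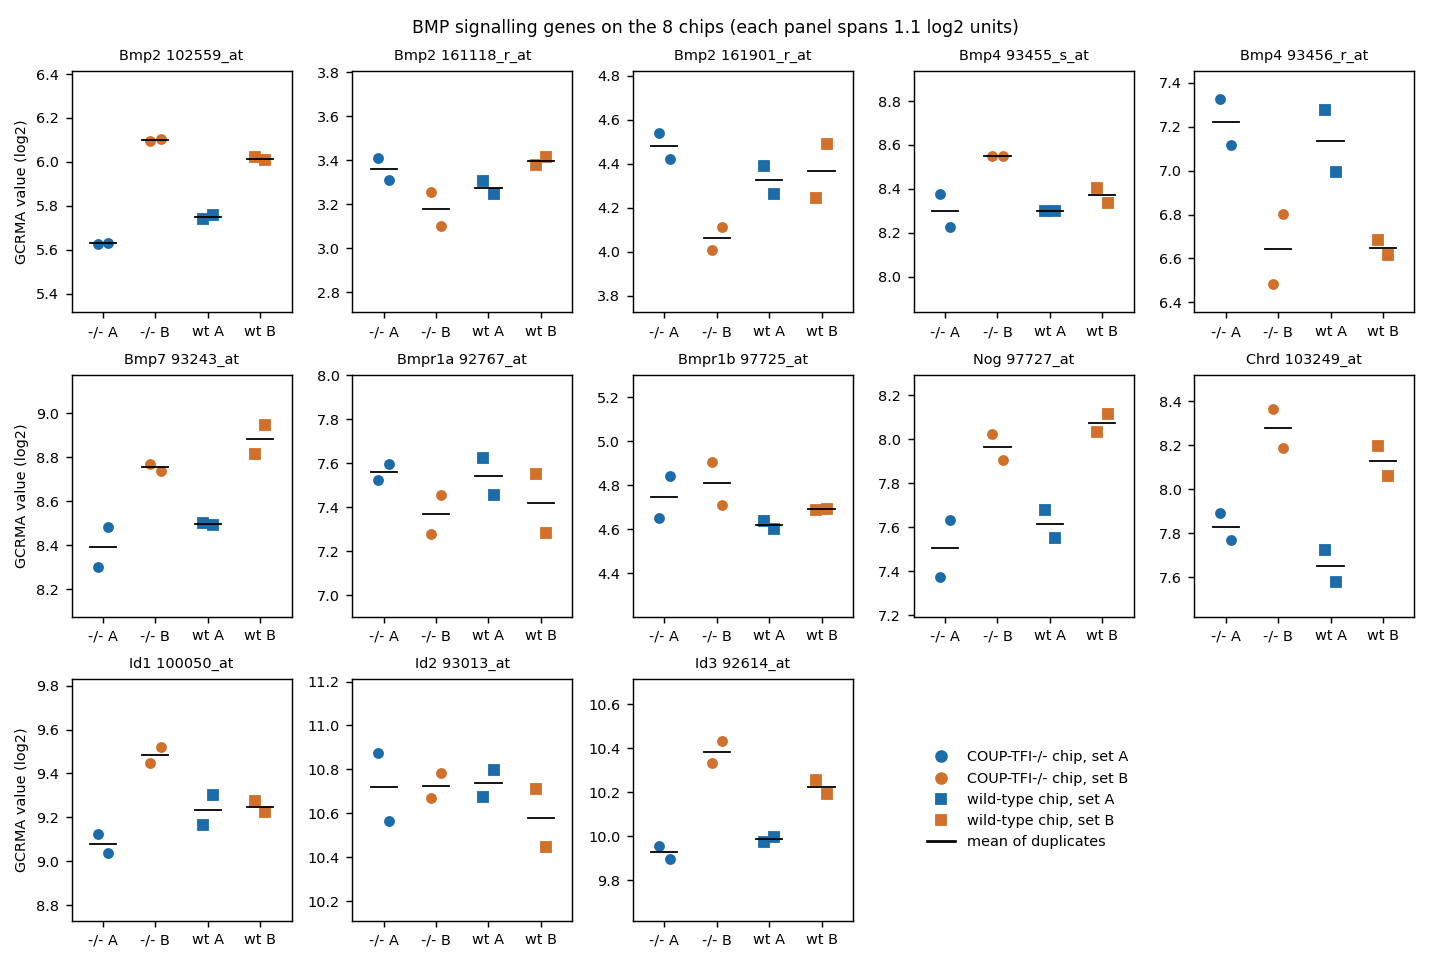
GCRMA value (log2, vertical axis) of each of the 13 BMP probe sets on the 8 chips, with COUP-TFI-/- chips as circles left of wild-type chips as squares, set A in blue, set B in orange and a bar at the mean of each pair of duplicates; every panel spans 1.1 log2 units. No panel separates the circles from the squares, while Bmp2 102559_at, Bmp7, Nog, Chrd and Id3 lie higher in set B than in set A in both genotypes.

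Among the ligands, Bmp2, which drives bone and cartilage formation among other roles, gave different readings in its 3 probe sets. Probe set 102559_at had GCRMA values of 5.63 and 5.63 in COUP-TFI-/- set A and 6.09 and 6.10 in COUP-TFI-/- set B, against 5.74 and 5.76 in wild-type set A and 6.02 and 6.01 in wild-type set B. COUP-TFI-/- was thus the lower genotype in set A and the higher one in set B, by -0.12 and 0.08 log2 units in GCRMA and by -0.20 and 0.37 in dChip. Averaged over the sets, the GCRMA difference was -0.02 (SE 0.10, adjusted p = 1.00 in limma). Its dChip intensities were 128 and 141 in COUP-TFI-/- set A and 236 and 200 in COUP-TFI-/- set B, against 155 and 153 in wild-type set A and 162 and 174 in wild-type set B. The COUP-TFI-/- set B chips were the highest of the 8 and the COUP-TFI-/- set A chips the lowest.

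The other Bmp2 probe sets ran the opposite way. Both carry the suffix _r, with which Affymetrix marks probe selections made under relaxed rules, and both were dim, at percentiles 7.42 (161901_r_at) and 0.845 (161118_r_at) of the mean GCRMA values. For 161901_r_at the GCRMA difference was 0.15 for set A and -0.31 for set B, and for 161118_r_at it was 0.08 for set A and -0.22 for set B. Probe set 161118_r_at had dChip intensities of 9.99, 8.87, 8.12 and 5.10 in the COUP-TFI-/- chips A1, A2, B1 and B2, against 5.75, 14.8, 10.01 and 10.5 in the wild-type chips. The wild-type chips of set A differed from each other by more than either set's difference between genotypes. Its dChip difference of -0.32 (SE 0.18, adjusted p = 1.00) rested on these low values and was -0.66 without wild-type A1 and 0.02 without wild-type A2. The 3 probe sets therefore did not give Bmp2 a common direction within either set.

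Bmp4, the ligand of the prospective sensory patches, read close to even between genotypes. Probe set 93455_s_at, whose suffix _s marks probes shared by several transcripts, had GCRMA values of 8.38 and 8.23 in COUP-TFI-/- set A and 8.55 and 8.55 in COUP-TFI-/- set B, against 8.30 and 8.30 in wild-type set A and 8.41 and 8.34 in wild-type set B. In set A the wild-type chips lay between the COUP-TFI-/- chips, and in set B both COUP-TFI-/- chips were above both wild-type chips. The difference was 0.09 over both sets (SE 0.10, adjusted p = 1.00), from 0.0022 for set A and 0.18 for set B. The second probe set, 93456_r_at, differed by 0.04 (SE 0.10, adjusted p = 1.00) in GCRMA and by 0.03 (SE 0.13, adjusted p = 1.00) in dChip. Its dChip difference was 0.21 for set A and -0.14 for set B.

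Bmp7, a ligand expressed widely in developing epithelia, was lower in COUP-TFI-/- in each set. The GCRMA values of Bmp7 were 8.30 and 8.48 in COUP-TFI-/- set A and 8.77 and 8.74 in COUP-TFI-/- set B, against 8.50 and 8.49 in wild-type set A and 8.82 and 8.95 in wild-type set B. In GCRMA both COUP-TFI-/- chips were below both wild-type chips in each set, but the COUP-TFI-/- chips of set B were above the wild-type chips of set A. The differences were -0.11 for set A and -0.13 for set B, or -0.12 over both (SE 0.10, unadjusted p = 0.236, adjusted p = 1.00 in limma), a 1.08-fold difference. The dChip intensities were 372, 438, 473 and 507 in the COUP-TFI-/- chips A1, A2, B1 and B2, against 460, 419, 515 and 538 in the wild-type chips, and the genotypes overlapped in set A. The dChip differences were -0.12 for set A and -0.10 for set B. One further probe set is named Bmp7 by the study but has no symbol in the platform annotation, so it was not among the 13. The study ranks this probe set among its top candidate COUP-TFI targets, by its own analysis of variance and conserved predicted COUP-TF sites. It was dim, at percentile 15.8 of the mean GCRMA values, with GCRMA differences of -0.35 for set A and -0.24 for set B, or -0.30 over both (SE 0.10, unadjusted p = 0.00735, adjusted p = 0.705 in limma). In dChip its difference was -0.24 (SE 0.10, unadjusted p = 0.0602, adjusted p = 1.00).

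The receptor Bmpr1a, a type I kinase needed for BMP responses in many tissues, differed by -0.02 in GCRMA and 0.02 in dChip (SE 0.10 and 0.10, adjusted p = 1.00 in both). On the GCRMA scale it read 7.52, 7.60, 7.28 and 7.45 in the COUP-TFI-/- chips A1, A2, B1 and B2, against 7.62, 7.46, 7.55 and 7.28 in the wild-type chips. The genotypes overlapped in both sets. The sign turned without wild-type B1 in GCRMA, to 0.05, and without wild-type B2 in dChip, to -0.08.

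Bmpr1b, the other type I receptor, which is best known from cartilage, gave the largest positive dChip difference of the members. Its intensities were 48.0 and 49.6 in COUP-TFI-/- set A and 78.7 and 57.8 in COUP-TFI-/- set B, against 43.0 and 46.1 in wild-type set A and 44.0 and 51.5 in wild-type set B. Both COUP-TFI-/- chips were above both wild-type chips in each set, while a COUP-TFI-/- chip of set A was below a wild-type chip of set B. The dChip difference was 0.32 (SE 0.13, unadjusted p = 0.0517, adjusted p = 1.00, 95% interval -0.0034 to 0.64), from 0.13 for set A and 0.50 for set B. It was 0.21 without COUP-TFI-/- B1, the brightest of the 8 chips. In GCRMA the difference was 0.12 (SE 0.10, unadjusted p = 0.218, adjusted p = 1.00), from 0.13 for set A and 0.12 for set B. This probe set lay at percentile 10.9 of the mean GCRMA values and 7.44 of the mean dChip values, so its signal was dim.

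The promoters of the members were read for the nuclear receptor hexamer AGGTCA, because COUP-TFI binds direct repeats of it. Only the single hexamer was read, not a repeat. The study instead scanned for pairs of such half-sites with variable spacing, in longer promoters, 5′ UTRs and first introns. It lists conserved matches for Bmp7, a gene with no promoter at hand here, so the scans cannot be compared. RefSeq promoters, 250 bases before to 50 after each annotated start on GRCm38.p6, were at hand for 6 of the 10 genes, with 8 promoters in all, since Bmpr1b has 3. AGGTCA stood on either strand in 1 of the 8, against 16.3% of 32851 promoters of the same length. That promoter was 1 of the 3 of Bmpr1b, on the minus strand at chr3:141931539-141931838. It is shown 5′ to 3′ with AGGTCA in capitals, 106 bases before the start, together with GTCTG, the reverse complement of the Smad-binding letters CAGAC, 245 bases before it.
Bmpr1b: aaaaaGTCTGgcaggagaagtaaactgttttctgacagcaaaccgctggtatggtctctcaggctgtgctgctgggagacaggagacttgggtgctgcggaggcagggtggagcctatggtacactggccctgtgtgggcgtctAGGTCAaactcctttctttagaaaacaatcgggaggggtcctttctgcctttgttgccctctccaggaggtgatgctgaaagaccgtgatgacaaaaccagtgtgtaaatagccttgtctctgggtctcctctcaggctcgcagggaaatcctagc
A match is only a run of letters, and binding was not measured on these arrays.

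Noggin (Nog), an antagonist that binds BMPs directly, had GCRMA values of 7.37 and 7.63 in COUP-TFI-/- set A and 8.02 and 7.90 in COUP-TFI-/- set B, against 7.68 and 7.55 in wild-type set A and 8.03 and 8.11 in wild-type set B. The genotypes overlapped within set A, and the COUP-TFI-/- chips were the lower ones within set B. The GCRMA difference was -0.11 in each set and -0.11 over both (SE 0.10, unadjusted p = 0.259, adjusted p = 1.00). In dChip it was 0.03 for set A and -0.14 for set B, or -0.06 over both (SE 0.11, adjusted p = 1.00).

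Chordin (Chrd), an antagonist first known from dorsal patterning of the embryo, gave the largest GCRMA difference of the 13. Its GCRMA values were 7.89 and 7.77 in COUP-TFI-/- set A and 8.36 and 8.19 in COUP-TFI-/- set B, against 7.72 and 7.58 in wild-type set A and 8.20 and 8.06 in wild-type set B. COUP-TFI-/- was higher by 0.18 for set A and 0.15 for set B, with both COUP-TFI-/- chips above both wild-type chips in set A and an overlap in set B. The difference was 0.16 over both sets (SE 0.10, unadjusted p = 0.104, adjusted p = 1.00 in limma), a 1.12-fold difference. The dChip values of the same chips did not carry it. They were 697, 605, 741 and 756 in the COUP-TFI-/- chips A1, A2, B1 and B2, against 656, 654, 795 and 735 in the wild-type chips, a difference of -0.02 (SE 0.10, adjusted p = 1.00). The genotypes overlapped in both sets. The sign of the Chrd difference thus depended on the normalization.

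The Chrd promoter, on the plus strand at chr16:20732877-20733176, is shown because it holds GGCGCC, letters found in Smad-binding sites of Id promoters. These start 203 bases before the annotated start, and GTCTG lies at base 8 after it, both in capitals.
Chrd: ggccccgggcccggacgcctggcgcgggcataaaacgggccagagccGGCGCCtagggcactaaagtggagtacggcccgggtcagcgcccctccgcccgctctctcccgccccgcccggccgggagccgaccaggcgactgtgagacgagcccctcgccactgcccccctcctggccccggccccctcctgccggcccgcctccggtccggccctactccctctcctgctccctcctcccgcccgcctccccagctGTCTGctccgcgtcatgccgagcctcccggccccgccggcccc
GGCGCC occurred in 3 of the 8 member promoters (Bmpr1a, Chrd and Id2), against 11.9% of all promoters, and CAGAC or its reverse complement in 4 of the 8, against 49.6%.

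Id1, Id2 and Id3 encode helix-loop-helix proteins without a DNA-binding region, which hold back differentiation factors by pairing with their partners and are early targets of BMP receptors. All 3 were lower in COUP-TFI-/- in set A and higher in set B, in both normalizations. Counted over all members, this pattern held for 4 of 13 probe sets in GCRMA and 4 of 13 in dChip (the 3 Id genes and Bmp2 102559_at), against 25.5% and 26% of all probe sets, so that the share of members was close to that of the array.

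Id1 showed it most clearly. Its GCRMA values were 9.12 and 9.04 in COUP-TFI-/- set A and 9.45 and 9.52 in COUP-TFI-/- set B, against 9.17 and 9.30 in wild-type set A and 9.27 and 9.22 in wild-type set B. The COUP-TFI-/- chips of set B were the highest of the 8 and those of set A the lowest, while the wild-type chips of both sets lay close together. The difference was -0.15 for set A and 0.24 for set B, which left 0.04 over both sets (SE 0.11, adjusted p = 1.00). The dChip intensities were 1322 and 1202 in COUP-TFI-/- set A and 1741 and 1810 in COUP-TFI-/- set B, against 1322 and 1413 in wild-type set A and 1484 and 1354 in wild-type set B. Here too the set B chips of COUP-TFI-/- were the highest, and in set A the upper COUP-TFI-/- chip, at 1321.58, was only just below the lower wild-type chip, at 1321.63.

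Id3 followed the same order with smaller differences between genotypes, but its wild-type chips also lay higher in set B. Its GCRMA values were 9.96 and 9.90 in COUP-TFI-/- set A and 10.33 and 10.43 in COUP-TFI-/- set B, against 9.975 and 9.997 in wild-type set A and 10.25 and 10.19 in wild-type set B. In GCRMA the COUP-TFI-/- chips were below both wild-type chips in set A and above both in set B. In dChip the genotypes overlapped in set A, at 1132 and 1246 in COUP-TFI-/- against 1267 and 1237 in wild-type. The differences were -0.06 for set A and 0.16 for set B in GCRMA, and -0.08 and 0.16 in dChip.

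Id2 varied more between duplicates than between genotypes. Its GCRMA values were 10.88, 10.56, 10.67 and 10.78 in the COUP-TFI-/- chips A1, A2, B1 and B2, against 10.68, 10.80, 10.71 and 10.45 in the wild-type chips, and the genotypes overlapped in both sets. The difference was -0.02 for set A and 0.15 for set B. The sign over both sets, 0.06 in GCRMA and 0.05 in dChip, turned to -0.01 and -0.0058 without COUP-TFI-/- A1.

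The promoters of Id2, on the minus strand at chr12:25096043-25096342, and of Id3, on the plus strand at chr4:136143572-136143871, are shown as the BMP targets among the members. Capitals mark GGCGCC in Id2, 231 bases before the start, and in Id3 CAGAC at 167 bases and GTCTG at 68 bases before the start.
Id2: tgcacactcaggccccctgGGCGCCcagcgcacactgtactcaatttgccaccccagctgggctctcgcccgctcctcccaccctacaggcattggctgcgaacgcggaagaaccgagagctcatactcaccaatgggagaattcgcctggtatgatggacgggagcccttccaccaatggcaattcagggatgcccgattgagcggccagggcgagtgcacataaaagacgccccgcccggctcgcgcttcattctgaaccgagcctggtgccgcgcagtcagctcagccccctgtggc
Id3: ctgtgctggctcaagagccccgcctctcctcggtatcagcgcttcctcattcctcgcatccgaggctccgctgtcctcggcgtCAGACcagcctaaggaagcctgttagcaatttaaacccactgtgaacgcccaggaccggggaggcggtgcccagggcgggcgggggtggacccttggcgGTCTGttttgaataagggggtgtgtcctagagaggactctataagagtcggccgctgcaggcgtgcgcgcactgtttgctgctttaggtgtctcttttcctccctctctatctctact
The Id2 window held no AGGTCA and no CAGAC, and the Id3 window no AGGTCA and no GGCGCC.

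Whether the genotype difference depended on the set was tested as an interaction on the 8 chips (limma, set A minus set B), a test that rests on the spread between duplicate chips and not on that between pools. At an adjusted p under 0.05, 0 of 13 members passed in either normalization, against 0.958% of all probe sets in GCRMA and 0.459% in dChip. At an unadjusted p under 0.05, 3 of 13 passed in GCRMA and 3 of 13 in dChip, against 16.4% and 21.1% of all probe sets. In GCRMA the probe sets that passed in limma were Id1 (-0.39, SE 0.12, unadjusted p = 0.0066, adjusted p = 0.143), Bmp2 161901_r_at (0.46, SE 0.14, unadjusted p = 0.0068, adjusted p = 0.143) and Bmp2 161118_r_at (0.30, SE 0.12, unadjusted p = 0.0272, adjusted p = 0.242). In dChip those of limma were Bmp2 102559_at (-0.57, SE 0.14, unadjusted p = 0.00334, adjusted p = 0.0855), Id1 (-0.44, SE 0.12, unadjusted p = 0.00652, adjusted p = 0.104) and Bmp4 93456_r_at (0.35, SE 0.15, unadjusted p = 0.0441, adjusted p = 0.223).

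In limma, Id1 was the only single probe set of the members below an unadjusted p of 0.05 in both normalizations. By the 2-way analysis of variance, Bmp2 102559_at was below it in both as well (unadjusted p = 5.97e-05 in GCRMA and 0.0179 in dChip). Those of Id1 by that test were 0.0135 and 0.0162. The GCRMA duplicates of Bmp2 102559_at had an SD of only 0.0082, beside a median of 0.09 over all probe sets. Leaving out each of the 8 chips in turn gave limma interactions from -0.46 to -0.32 for Id1 in GCRMA, with unadjusted p from 0.00574 to 0.0354 and adjusted p from 0.146 to 0.375. The interactions of Id3 were -0.22 (SE 0.11, unadjusted p = 0.077, adjusted p = 0.369) in GCRMA and -0.24 (SE 0.11, unadjusted p = 0.0666, adjusted p = 0.271) in dChip.

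Striated muscle and macrophage genes were read beside these values, because they too were higher in COUP-TFI-/- in set B. By their medians in GCRMA, neither was lower in COUP-TFI-/- in set A, unlike the Id genes. By single genes, 3 of the 7 muscle markers (Acta1, Actc1 and Ckm) and 1 of the 4 macrophage markers showed the pattern of the Id genes. The study reports that striated muscle classes were overrepresented among its genes with a significant interaction. All 7 listed muscle markers, among them Acta1, Ckm and Myh3, were on the array, at percentiles 51.1 to 99.6 of the mean GCRMA values by the brightest probe set of each. Their summed dChip intensity was 17880 in COUP-TFI-/- and 18499 in wild-type for set A, and 19692 in COUP-TFI-/- and 12159 in wild-type for set B. The median GCRMA difference of the muscle markers was 0.0057 for set A and 0.98 for set B, and 2 of the 7 passed the adjusted genotype test. The median of set B was the value of Ckm, whose other probe set, at percentile 50.9, differed by -0.02 for set B, and the other probe set of Myh8, at percentile 8.90, differed by 0.02. The 4 macrophage markers had a median GCRMA difference of 0.10 for set A and 0.38 for set B. Their summed dChip intensities were 2805 in COUP-TFI-/- and 2714 in wild-type for set A. For set B they were 3136 in COUP-TFI-/- and 2741 in wild-type. Lyz2 went the other way for set A, at -0.41. The other probe sets of C1qb, Csf1r and Lyz2, at percentiles 52.3, 18.3 and 8.07, differed by -0.09, -0.08 and -0.24 for set B. The lists with a median GCRMA difference below 0 for set A and above 0 for set B were others. They were Schwann cell (-0.14 and 0.18), erythroid (-0.03 and 0.09) and hair cell markers (-0.03 and 0.08). Only 2, 2 and 3 of their genes were on the array, and 1 of the 3 hair cell genes showed the pattern. The other probe sets of Sox10 and Mbp, the 2 Schwann cell genes, did not show it. The part of any of these tissues in the Id and Bmp2 values was not tested.

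**Figure D2:**
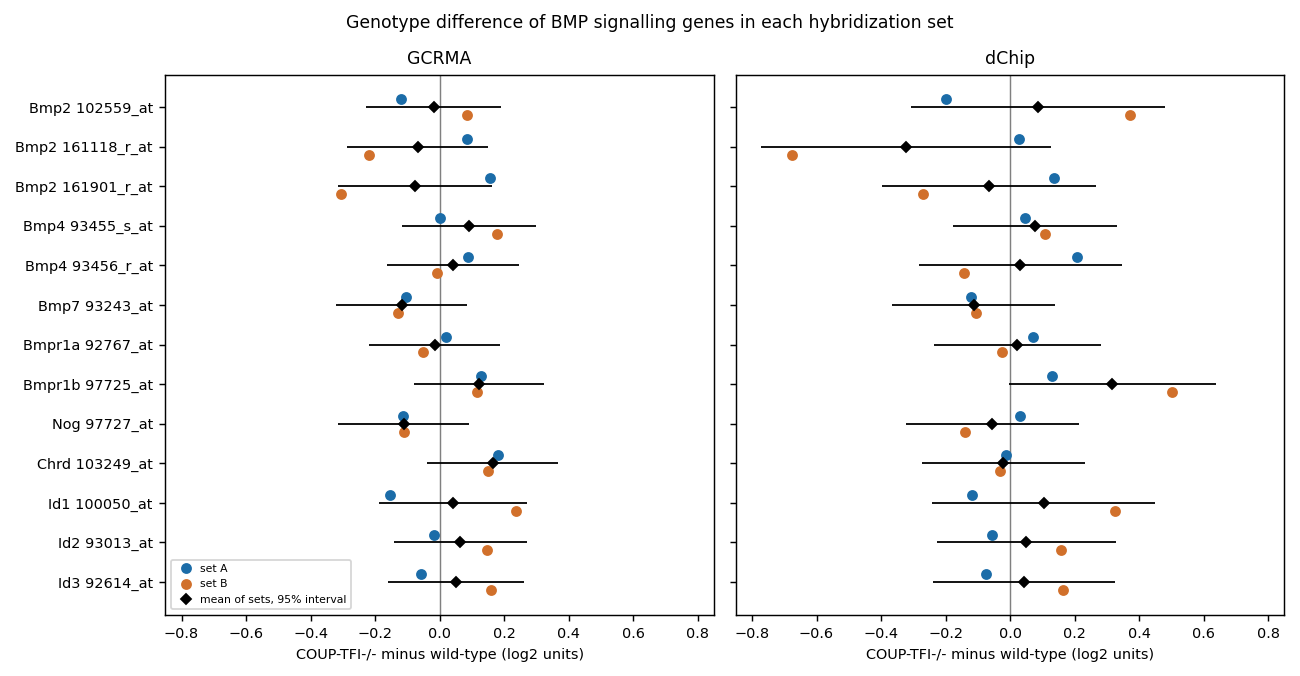
Genotype difference (COUP-TFI-/- minus wild-type, log2 units, horizontal axis) of each BMP probe set in set A (blue) and set B (orange), with the mean of both sets and its 95% interval from limma (black), for GCRMA on the left and dChip on the right. All intervals include 0, and the Id genes and Bmp2 102559_at lie below 0 for set A and above 0 for set B in both panels.

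The members, like the array as a whole, varied more with the hybridization set than with genotype. In GCRMA, 9 of 13 probe sets differed between sets A and B at an adjusted p under 0.05 (limma on the 8 chips), against 46.1% of all probe sets, and 7 of the 9 were higher in set B, a call that 24.2% of all probe sets received. In dChip 8 of 13 differed, against 50.5% of all probe sets, and all 8 were higher in set B, against 24%. The median absolute set difference was 0.21 in GCRMA and 0.27 in dChip for the members, above their 0.07 for genotype. For all probe sets it was 0.16 and 0.19, above 0.06 and 0.07 for genotype. These tests also rest on duplicate chips, and with 1 pool per genotype in each set the hybridization and the pools cannot be told apart.

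The 7 probe sets called in both normalizations were all higher in set B, and they covered ligands, antagonists and targets. Both antagonists were among them. Nog differed by -0.46 (set A minus set B, SE 0.07, adjusted p = 0.000293) in GCRMA and -0.41 (SE 0.05, adjusted p = 0.000511) in dChip, and in both the 4 chips of set A lay below the 4 of set B. Chrd differed by -0.46 (SE 0.07, adjusted p = 0.000215) in GCRMA, with no overlap between the sets, and by -0.21 (SE 0.06, adjusted p = 0.0214) in dChip. The dChip call for Chrd was lost without any 1 of COUP-TFI-/- A2 or B2 or wild-type A1, A2 or B1, with adjusted p from 0.051 to 0.0726 in limma, and also by the 2-way analysis of variance (adjusted p = 0.0543).

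Of the ligands, Bmp7 differed by -0.37 (SE 0.06, adjusted p = 0.000506) in GCRMA and -0.27 (SE 0.07, adjusted p = 0.0134) in dChip, a call lost by the 2-way analysis of variance (adjusted p = 0.0546). Bmp2 102559_at differed by -0.37 (SE 0.05, adjusted p = 0.000198) in GCRMA and -0.41 (SE 0.07, adjusted p = 0.00187) in dChip. Bmp4 93455_s_at differed by -0.16 (SE 0.06, adjusted p = 0.0402) in GCRMA, a call lost without any 1 of 7 chips (all but COUP-TFI-/- A1), with adjusted p up to 0.156, and by the 2-way analysis of variance (adjusted p = 0.0556), and by -0.23 (SE 0.05, adjusted p = 0.00792) in dChip. The other Bmp4 probe set went the other way in GCRMA, 0.53 (SE 0.09, adjusted p = 0.000431), with values of 7.33, 7.12, 7.27 and 6.99 for set A and 6.48, 6.80, 6.68 and 6.62 for set B (COUP-TFI-/- chips before wild-type chips). Its dChip difference was 0.12 (SE 0.07, adjusted p = 0.207). The direction of Bmp4 between the sets therefore depended on the probe set.

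Of the targets, Id3 differed by -0.35 (SE 0.06, adjusted p = 0.000439) in GCRMA and -0.37 (SE 0.06, adjusted p = 0.0011) in dChip, with the sets apart in both genotypes. Id1 differed by -0.21 (SE 0.06, adjusted p = 0.0133) in GCRMA and -0.27 (SE 0.06, adjusted p = 0.00668) in dChip, mostly through the COUP-TFI-/- chips. The GCRMA call for Id1 was lost without COUP-TFI-/- A2 (adjusted p = 0.0532) or wild-type A1 (adjusted p = 0.0605). Id2 did not pass, at 0.08 (SE 0.08, adjusted p = 0.483) in GCRMA and -0.05 (SE 0.07, adjusted p = 0.605) in dChip.

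The receptors gave no call that both normalizations shared. Bmpr1b passed in dChip alone, at -0.28 (SE 0.10, adjusted p = 0.0471), and lost the call without any 1 of 6 chips (all but COUP-TFI-/- B2 and wild-type B1), with adjusted p up to 0.141 in limma, and by the 2-way analysis of variance (adjusted p = 0.156). The Bmpr1b call was also lost with dChip values under 16 set to 16 (adjusted p = 0.0708 in limma). Bmpr1a passed in neither, at 0.16 (SE 0.08, adjusted p = 0.107) in GCRMA and 0.15 (SE 0.10, adjusted p = 0.268) in dChip, and reached an adjusted p of 0.0362 in GCRMA without wild-type B1. Bmp2 161901_r_at was higher in set A in GCRMA, by 0.19 (SE 0.07, adjusted p = 0.0443), a call lost without any 1 of 6 chips (all but COUP-TFI-/- B2 and wild-type B2), with adjusted p up to 0.177, and by the 2-way analysis of variance (adjusted p = 0.148).

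Most cartilage markers, like 7 of the 13 BMP probe sets, were called higher in set B in GCRMA, while 2 of the 13 were called higher in set A. The 5 of 6 listed cartilage markers on the array (Acan, Col11a2, Col2a1, Col9a1 and Matn1) had a median set difference of -0.68 in GCRMA. Of these, 4 were called higher in set B, and Col2a1 was the exception, at 0.05. Their summed dChip intensity was 13768 in COUP-TFI-/- and 12895 in wild-type for set A, and 21791 in COUP-TFI-/- and 19881 in wild-type for set B. Inner ear epithelial markers went the other way, with all 7 on the array called higher in set A and a median set difference of 0.44. Their sums were 9951 in COUP-TFI-/- and 10957 in wild-type for set A, and 8038 in COUP-TFI-/- and 8782 in wild-type for set B. Neuronal markers had a median set difference of 0.43, with 4 of 5 called higher in set A. The part of tissue composition in the BMP set differences was not tested.

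**Figure D3:**
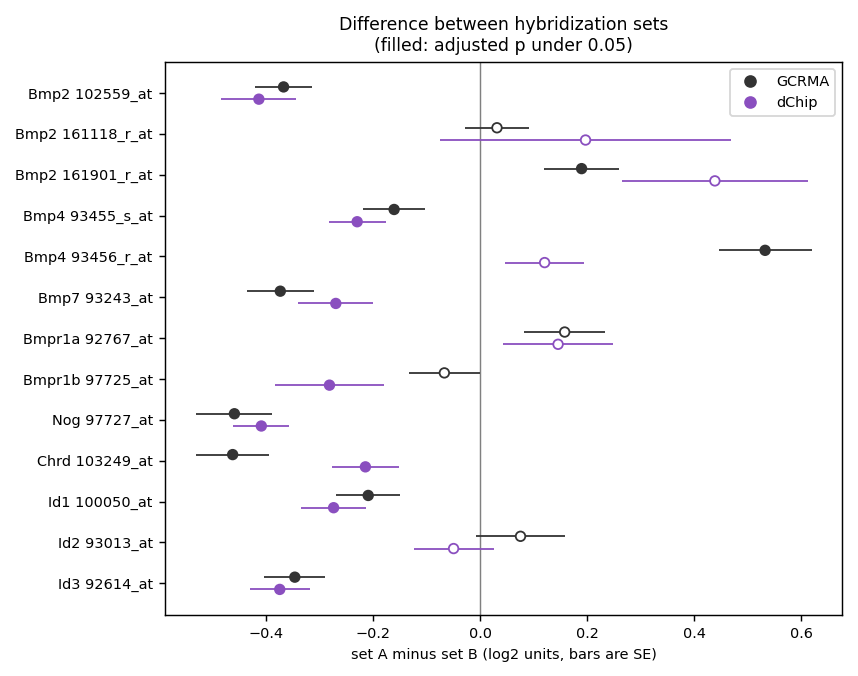
Set A minus set B (log2 units, horizontal axis) for each BMP probe set, averaged over the genotypes, in GCRMA (black) and dChip (purple), with bars of 1 SE from limma and filled points at an adjusted p under 0.05. The 7 probe sets filled in both colours all lie left of 0, from -0.16 to -0.46 in GCRMA, while Bmp4 93456_r_at lies at 0.53.

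The genes whose values most resembled those of Chrd, Nog and Bmp7, the 3 members whose brightest probe set varied most, were sought over the 8 GCRMA chips by Pearson's r, a description in which all points share the sets. Chrd was closest to Dtnb, which encodes a dystrobrevin (r = 0.985), and Gdf11, another ligand of the superfamily (r = 0.984). Nog was closest to Ctsw, a cathepsin (r = 0.995), and Slc6a2, the noradrenaline transporter (r = 0.986), and Bmp7 to Slc6a2 (r = 0.987) and Slc35g3, a solute carrier (r = 0.985). Of the non-member probe sets with 1 symbol, 7.27% had an absolute r above 0.9 with Chrd, 8.97% with Nog and 7.60% with Bmp7. Such values were thus common. They did not always carry over to dChip, where Slc6a2 read 2081, 1897, 1414 and 1350 in the COUP-TFI-/- chips A1, A2, B1 and B2, against 1395, 1704, 1079 and 1135 in the wild-type chips, higher in set A.

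The rest of the pathway was read from 92 listed genes, of which 65 were on the array with 82 probe sets. None passed an adjusted p under 0.05 for genotype in GCRMA or dChip (limma). At an unadjusted p under 0.05, 1 of 82 passed in GCRMA (1.22%, against 4.58% of all probe sets) and 3 of 82 in dChip (3.66%, against 2.13%). The median difference was -0.0081 in GCRMA and -0.0042 in dChip. By group, the median GCRMA differences were -0.0075 for 18 probe sets of other BMP and GDF ligands, 0.02 for 11 of other receptors and co-receptors, -0.02 for 16 of Smads and their modulators, 0.01 for 14 of other secreted antagonists and modulators, and -0.0064 for 23 of other BMP-responsive transcription factors and Id partners.

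The single GCRMA probe set was that of Dlx2, a homeobox gene that responds to BMPs in craniofacial development. Its GCRMA values were 5.18, 5.07, 4.71 and 5.08 in the COUP-TFI-/- chips A1, A2, B1 and B2, against 4.44, 4.81, 4.64 and 4.60 in the wild-type chips. All COUP-TFI-/- chips except B1 were above all wild-type chips. The difference was 0.39 (SE 0.10, unadjusted p = 0.00134, adjusted p = 0.355 in limma), from 0.50 for set A and 0.28 for set B. Without COUP-TFI-/- B1 it was 0.48 with an adjusted p of 0.0101, while leaving out any other chip gave adjusted p from 0.339 to 1.00.

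In dChip, Dlx2 had intensities of 53.3, 53.3, 37.1 and 52.3 in the COUP-TFI-/- chips, against 26.3, 37.0, 32.1 and 29.5 in the wild-type chips. The lowest COUP-TFI-/- chip lay just above the highest wild-type chip. The difference was 0.65 (SE 0.12, unadjusted p = 0.00179, adjusted p = 1.00). The probe set stood at percentile 11.8 of the mean GCRMA values and 5.03 of the mean dChip values, so that its signal was dim in both.

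The other probe sets at an unadjusted p under 0.05 in dChip were Map3k7, which encodes the kinase TAK1 downstream of the receptors, at 0.36 (SE 0.13, unadjusted p = 0.0341, adjusted p = 1.00), and Bmp10, a ligand of the heart, at -0.32 (SE 0.11, unadjusted p = 0.0301, adjusted p = 1.00). In GCRMA the Map3k7 difference was 0.15 (SE 0.10, unadjusted p = 0.125, adjusted p = 1.00) and that of Bmp10 was 0.06 (unadjusted p = 0.569, adjusted p = 1.00), with the opposite sign.

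Between the hybridization sets, 50% of the other pathway probe sets were called in GCRMA and 57.3% in dChip, beside 46.1% and 50.5% of all probe sets.

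**Figure D4:**
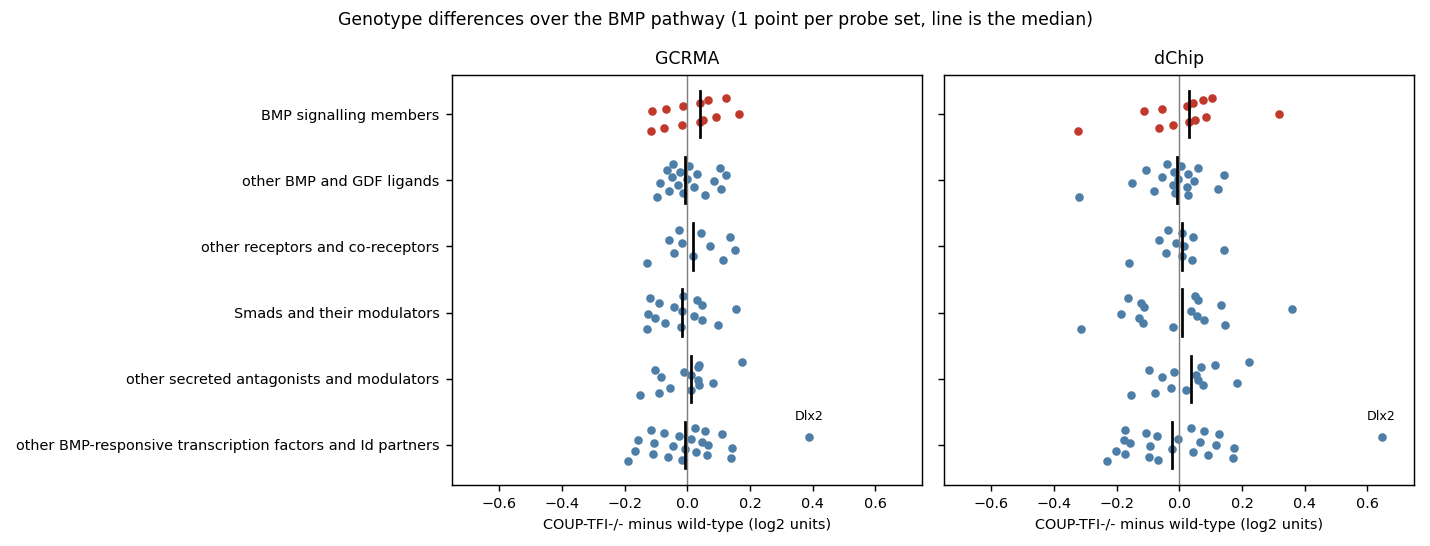
Genotype difference (COUP-TFI-/- minus wild-type, log2 units, horizontal axis) of the 13 BMP member probe sets (red, top row) and of 82 probe sets of other BMP pathway genes (blue, 5 groups), 1 point per probe set with a bar at each median, for GCRMA on the left and dChip on the right. The medians lie near 0 in every group, from -0.02 to 0.04, and Dlx2 stands apart at 0.39 in GCRMA and 0.65 in dChip.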

How the data were processed

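Total RNA from pools of P0 inner ears was hybridized to 8 Affymetrix MG-U74Av2 chips, 4 from COUP-TFI-/- and 4 from wild-type ears. The authors normalized all chips by GCRMA and again by dChip, with versions not given in the sources used here. The GCRMA values were deposited on a log2 scale, and the dChip values were deposited as linear intensity, which can amplify ratios at the low end. Here dChip values under 1 (89 in all, none of a member) were set to 1 and log2 transformed. Of 12488 probe sets, 66 controls were left out, which left 12422 for GCRMA and 12421 for dChip.

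Genotype was tested with limma 3.58.1 (R 4.3.3) on the 4 pool means, after averaging duplicates, with the hybridization set as a block and 1 residual degree of freedom beside the prior (14.3 in GCRMA, 4.55 in dChip). The sets pair the pools by the study's methods, and the set difference of the genotypes correlated with r of 0.752 in GCRMA and 0.688 in dChip across probe sets. Interaction and set terms were fitted on the 8 chips, with duplicates as replicates. P-values are 2-sided and adjusted by Benjamini-Hochberg over all probe sets. The number of chips limits the precision, and the median SD between duplicates was 0.09 log2 units in both.

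Symbols came from the platform annotation (10833 probe sets with 1 symbol, 396 with several and 1193 with none), and promoters from RefSeq on GRCm38.p6. Alternatives covered the unit of replication, the block, an analysis of variance, quantile normalization, a filter on dim probe sets, the dChip floor and leaving out each chip. The members and gene lists were chosen with earlier results of these data known. All member probe sets were named, with Nr2f1, pathway probe sets at an unadjusted p under 0.01 and the genes closest to the 3 members whose brightest probe set varied most. Map3k7 and Bmp10 were named after their values were seen, and other genes that the rule named by size alone are given through their group. Scripts were tested on simulated data.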

Additional observations from a re-analysis of the deposited data

How the results depend on the processing

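The count of 0 of 13 member probe sets called for genotype held under every alternative run, in both normalizations. It was 0 with no replicate block (pool means without the set) and 0 with the chip label as a replicate block. The lowest adjusted p over the 395 member alternatives was 0.399, and 0 or 1 members had an unadjusted p under 0.05. Of these alternatives 372 held the sign and 23 turned it. The set calls ranged from 6 to 8 without 1 chip in both normalizations, and dChip gave 5 by the 2-way analysis of variance. One member interaction, Bmp2 102559_at in dChip, was called without the dimmest 25% of probe sets, where 10 member probe sets were left. Its unadjusted p was 0.00112 and its adjusted p 0.0401 in limma, against 0.00334 and 0.0855 with all probe sets. Both the unadjusted p and the number of probe sets tested were thus lower. The other pathway count in GCRMA was 0 to 1 without 1 chip, through Dlx2.

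Quantile normalization of dChip turned the genotype difference of Bmp2 161901_r_at to 0.039 and the set difference of Bmp2 161118_r_at to -0.011. Leaving out 1 chip gave genotype differences of -0.038 to 0.12 in GCRMA and -0.039 to 0.10 in dChip for Bmp4 93456_r_at, -0.083 to 0.052 and -0.076 to 0.12 for Bmpr1a, and -0.014 to 0.14 and -0.0058 to 0.11 for Id2. In dChip they were -0.66 to 0.018 for Bmp2 161118_r_at, -0.25 to 0.12 for Bmp2 161901_r_at and -0.072 to 0.030 for Chrd. The GCRMA interaction of Bmp4 93456_r_at was -0.063 to 0.25. Set differences were -0.0073 to 0.070 in GCRMA and -0.14 to 0.54 in dChip for Bmp2 161118_r_at, and -0.0025 to 0.15 and -0.11 to 0.0070 for Id2. The cause was not tested. With dChip values under 16 set to 16, Bmp2 161118_r_at had no value, since all its intensities lie below that. Dim probe sets and 2 pools per genotype limit what could be detected.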
